A study of Caenorhabditis elegans with 83 samples.

Results

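Small RNAs of Caenorhabditis elegans with mutations in both met-2 and set-25 were compared between generation F3 and generation P0 in untreated lines of the reporter strain SX1263. The libraries were taken by their labels: 3 F3 control libraries and 3 P0 control libraries of SX1263 animals with the alleles n4256 of met-2 and n5021 of set-25, so 6 of the 83 libraries of the series. F3 control animals were descendants of P0 worms on bacteria with an empty vector, and per the series design they themselves ate standard OP-50 bacteria. P0 control animals ate the empty-vector bacteria. All 6 libraries came from whole day 1 adults grown at 20 degrees, and animals of both generations carried both mutations and the SX1263 background, which holds a GFP reporter. The labels name neither the promoter of the reporter nor the cells that express it. They name a pair of library kits without saying which library was made with which, nor when libraries were sequenced. Generation, food and any such difference in preparation therefore cannot be told apart.

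MET-2 and SET-25 are histone methyltransferases that put methyl groups on lysine 9 of histone H3, a mark of silent chromatin. In worms, Argonaute proteins loaded with antisense 22G small RNAs find transcripts of the same sequence, in part to silence them and in part, through CSR-1, to license germline genes, and some of these small RNAs pass from parent to offspring. A count of small RNAs on a gene is therefore not a measure of its mRNA, and a gene can gain small RNAs when it is transcribed more or when it is silenced more.

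Each library's reads per gene summed to 6174060, 3583283 and 8941976 counts in F3 replicates 1 to 3, and to 15323987, 11470259 and 9208436 counts in P0 replicates 1 to 3. Every F3 library was shallower than every P0 library. F3 replicate 2 stood apart: it was the shallowest, with 12763 genes detected against 14740 and 15237 in the other F3 libraries and 15522 to 16061 in P0, and its scaling factor was 0.788 against 0.991 and 0.942. Results are therefore also given without it. Levels below are CPM, the usual library-scaled counts, after scaling by TMM factors, and 3 counts, taken as the floor of detection in a library, corresponded to 0.335 to 0.837 CPM in F3 and 0.196 to 0.326 CPM in P0. Floors and intervals cover counting error only. The labels do not say whether replicates came from separate cultures, so p-values measure spread between libraries. Unless said otherwise, in SX1263 this spread was estimated from all 59 SX1263 libraries together, not from the compared libraries alone.

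Small RNAs on the mutated genes did not differ between the generations beyond the spread of the libraries. For met-2 (chromosome III, 8375300 to 8380848, WBcel235) the F3 libraries had 92.1, 80.7 and 93.8 CPM, against 106, 83.5 and 76.7 CPM in P0, a log2 change of 0.00 (SE 0.14). The wild-type SX1263 controls had 341 ± 26.7 CPM at F3 and 336 ± 29.8 CPM at P0 (SD, n = 3 each), so that all 6 double-mutant libraries lay below the wild-type means. For set-25 (chromosome III, 13283824 to 13293090) the levels were 108, 146 and 123 CPM in F3 and 118, 118.6 and 109 CPM in P0, a log2 change of 0.13 (SE 0.13, adjusted p = 0.58), and the wild-type means were 268 and 252 CPM at F3 and P0. The labels do not give the extent of either mutation, and reads outside a deleted part would still count.

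The reporter sequences did not pass the test between the generations either. GFP had 71.0, 58.4 and 64.6 CPM in F3 controls, against 127, 68.7 and 63.5 CPM in P0 controls. The groups overlapped, and the log2 change was -0.41 (SE 0.22, adjusted p = 0.26). The CB-unc-119 sequence had 831 ± 18 CPM in F3 and 1018 ± 144 CPM in P0, and the endogenous unc-119 gene had 152 ± 33.8 and 216 ± 45.1 CPM. Neither difference passed the test (adjusted p = 0.58 and 0.12).

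Among genes that passed a filter on low counts, more were called higher than lower in F3, and the higher calls were smaller in size. Of 12706 genes tested, 675 (5.31%) passed edgeR's robust quasi-likelihood test, taken as an adjusted p (Benjamini-Hochberg) below 0.05, and these are the genes named as called throughout. Small RNAs of 429 genes were higher in F3 (3.38%) and those of 246 genes were lower (1.94%), beside a median log2 change of -0.03 and 47.3% positive changes over all genes tested. Without the filter on low counts the split turned round, with 115 genes higher and 175 lower. At an unadjusted p under 0.05 there were 2925 genes. The called genes differed in kind. Genes called higher had median levels of 67.4 CPM in F3 and 43 CPM in P0 and a median fitted change of 1.60-fold. Genes called lower were poor in small RNAs, with medians of 3.15 CPM in F3 and 8.08 CPM in P0, and a median change of 2.98-fold. Of the genes called higher, 143 changed at least 2-fold, and of those called lower, 187.

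Together the genes called higher took 3.75, 4.76 and 3.46% of counts in the F3 libraries, against 2.20, 2.66 and 2.81% in P0, with the largest share in F3 replicate 2. Genes called lower took 0.744, 0.620 and 0.705% in F3 and 1.53, 1.20 and 1.07% in P0. Genes with a mean of 20 to 100 CPM held 186 of the higher calls among 3634 tested, or 5.12%, while genes of 1 to 5 CPM held 103 of the lower calls among 2845, or 3.62%. In 361 of the 429 genes called higher and 232 of the 246 called lower the 3 F3 libraries did not overlap the 3 P0 libraries. Over all genes tested the groups did not overlap in 21%, with F3 above P0 in 10.2% and below in 10.8%.

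The count of calls rested on single libraries and on the shared estimate of spread. Without F3 replicate 2 it was 152 (104 higher and 48 lower), of which 129 were among the 675 in the same direction. Without P0 replicate 1 it was 141, and without P0 replicate 2 it was 423. When just the 2 groups were fitted, in place of all 59 SX1263 libraries, no gene was called, although 1380 had an unadjusted p under 0.05. DESeq2 called 918. Leaving out each of the 6 libraries in turn, 65 genes were called in all 6 fits, 44 higher and 21 lower. Genes said below to be called in all 6 fits do not rest on any 1 of the 6 libraries, but they do rest on the spread shared with the other SX1263 libraries. Of the 75 called genes named by rule, 24 kept their call without F3 replicate 2 and 25 without P0 replicate 1.

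**Figure D1:**
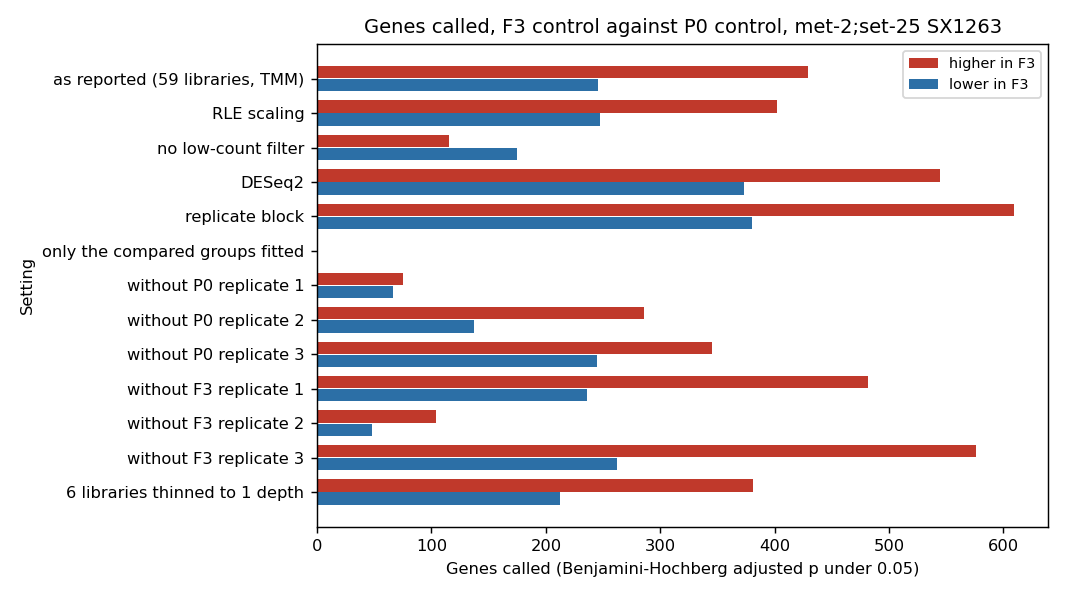
Number of genes called in F3 control against P0 control libraries of met-2;set-25 SX1263 (x axis, genes at an adjusted p under 0.05) under each setting (y axis); red bars are genes higher in F3 and blue bars genes lower in F3. The count was 429 higher and 246 lower as reported, 104 and 48 without F3 replicate 2, 75 and 66 without P0 replicate 1, and 0 when only these 2 groups were fitted.

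Small RNAs on yolk protein genes were higher in F3. Vitellogenins are lipid-carrying yolk proteins made in the adult intestine and taken up by oocytes. Of the 6 vit genes and rme-2, the yolk receptor gene, 4 were called higher (vit-2, vit-4, vit-5 and vit-6) and none lower. That is 57.1% called higher, against 3.38% of all genes. All 7 had a positive change, from 0.20 to 1.88 on the log2 scale with a median of 1.44. In 6 of the 7 the F3 libraries lay wholly above the P0 libraries, beside 10.2% of all genes tested.

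The gene vit-6 (chromosome IV, 8261157 to 8266459) had 70.4, 113 and 86.8 CPM in F3, against 24, 22.9 and 26.1 CPM in P0. All F3 libraries lay above all P0 libraries, and the log2 change was 1.88 (SE 0.39, adjusted p = 0.0048), or 3.69-fold. For vit-2 (chromosome X, 5101042 to 5106169) the levels were 31.7, 32.9 and 34.1 CPM in F3 and 12.2, 9.15 and 12.9 CPM in P0. This gene had a narrow spread in F3, with a mean of 32.9 ± 1.17 CPM against 11.4 ± 2.01 CPM in P0 (log2 change 1.52, SE 0.29, adjusted p = 0.0021). Both were called in all 6 fits that leave out a library. For vit-5 the F3 libraries had 19, 20.5 and 21.6 CPM and the P0 libraries 7.17, 5.88 and 9.50 CPM (log2 change 1.44, adjusted p = 0.011). Its call was lost without P0 replicate 1 (adjusted p = 0.054). The level of vit-4 was lower, 6.25 ± 0.502 CPM in F3 and 1.86 ± 0.692 CPM in P0 (log2 change 1.72, adjusted p = 0.028). Its call was lost without F3 replicate 2 (adjusted p = 0.082) and without any 1 of the 3 P0 libraries. Some of the vit genes are close copies of each other, and whether reads of 1 copy were counted on another is not known.

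Genes of the intestine as a group leaned the same way. Of 27 tested genes of gut identity and absorption all 27 had a positive change, with a median of 0.61, against -0.03 over all genes. In 12 of them the F3 libraries lay wholly above the P0 libraries, beside 10.2% of all genes tested. Only vit-2 and ifc-2, an intermediate filament gene of the gut, passed the test (7.41% called higher, against 3.38% of all genes). For ifc-2 the levels were 21.4, 30.1 and 30.3 CPM in F3 and 16.4, 11.9 and 14 CPM in P0 (log2 change 0.95, adjusted p = 0.039). Its call was lost without F3 replicate 2 (adjusted p = 0.12), without F3 replicate 3 and without any 1 of the 3 P0 libraries. Summed over all 32 genes of the list the levels were 289, 328 and 354 CPM in F3, against 234, 232 and 223 CPM in P0. The groups did not overlap. Without F3 replicate 2 the median of the list was 0.62, nearly the same. In whole animals, fewer cells of a type and less small RNA per cell cannot be told apart.

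Small RNAs on sperm genes moved the other way. Hermaphrodites make sperm before they switch to oocytes, and the Argonautes ALG-3 and ALG-4 together with CSR-1 act on spermatogenesis genes. Major sperm proteins build the sperm cytoskeleton and are encoded by many near-identical copies. Of 31 msp genes 14 passed the filter on low counts, and all 14 had a negative change, with a median of -1.52. Of the 14, 3 were called lower (21.4%, against 1.94% of all genes). Summed over the 31 genes the level was 9.33, 7.79 and 7.84 CPM in F3, against 22.5, 23.7 and 33.2 CPM in P0. Of the 31, 11 had no count in any F3 library and 4 had none in any P0 library. As the F3 libraries were shallower, rare genes could more easily lack a count there. The sum in every F3 library lay below that in every P0 library.

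For msp-50 (chromosome II, 5199797 to 5200180) the F3 libraries had 1.15, 1.42 and 1.66 CPM and the P0 libraries 5.97, 3.95 and 3.43 CPM. The change of -1.65 on the log2 scale (SE 0.49, adjusted p = 0.040) was lost in 5 of the 6 fits that leave out a library. msp-56 had 0.982, 0.00 and 1.07 CPM in F3 and 1.87, 4.33 and 4.35 CPM in P0 (log2 change -2.10, adjusted p = 0.031). Its call was lost without F3 replicate 1 or 2 and without P0 replicate 2 or 3. msp-76 was called in all 6 such fits but had just 3 counts over the F3 libraries, against 65 over the P0 libraries. Scaled to library size the P0 level was 11.6 times the F3 level, with an exact 95% counting interval of 3.79 to 57.5. As the msp genes differ by few bases, the value of any 1 copy is uncertain.

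Of 41 tested spermatogenesis genes outside the msp family 38 had a negative change, with a median of -0.93. Of the 41, 2 were called lower (4.88%, against 1.94% of all genes). Summed over all 46 genes of the list the level was 553, 599 and 610 CPM in F3, against 917, 834 and 877 CPM in P0, without overlap. spe-41, a channel that sperm need to fertilize the egg, had 30.9, 40.4 and 55.6 CPM in F3 and 77.0, 76.5 and 88.7 CPM in P0 (log2 change -0.93, SE 0.22, adjusted p = 0.011). The small gene nspd-1 had 2.13, 0.354 and 1.43 CPM in F3 and 7.02, 4.24 and 8.92 CPM in P0 (log2 change -2.23, SE 0.52, adjusted p = 0.011). Both calls were lost without F3 replicate 2 (adjusted p = 0.068 and 0.074), that of spe-41 also without F3 replicate 1, and the median of the list was then -0.84. At the other end of germ cell development, 65 oogenesis and germline genes had a median of 0.08. Of them 2 were called higher (3.08%, near the 3.38% of all genes). These were lag-1, the transcription factor of germline Notch signalling (log2 change 0.52, adjusted p = 0.015), and gld-4, a poly(A) polymerase (log2 change 0.54, adjusted p = 0.038). Neither call held without F3 replicate 2 or without P0 replicate 1. Body wall muscle (28 tested, median -0.16) and neurons (34 tested, median -0.26) had no gene called by edgeR, 1 and 5 at an unadjusted p under 0.05, and 0 and 1 called by DESeq2. Both lists had reads in every library, with sums of 839 to 1354 and 1329 to 1760 CPM in F3 and 842 to 980 and 1387 to 1940 CPM in P0. The part of gut, yolk and sperm markers in the other changes was not tested.

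**Figure D2:**
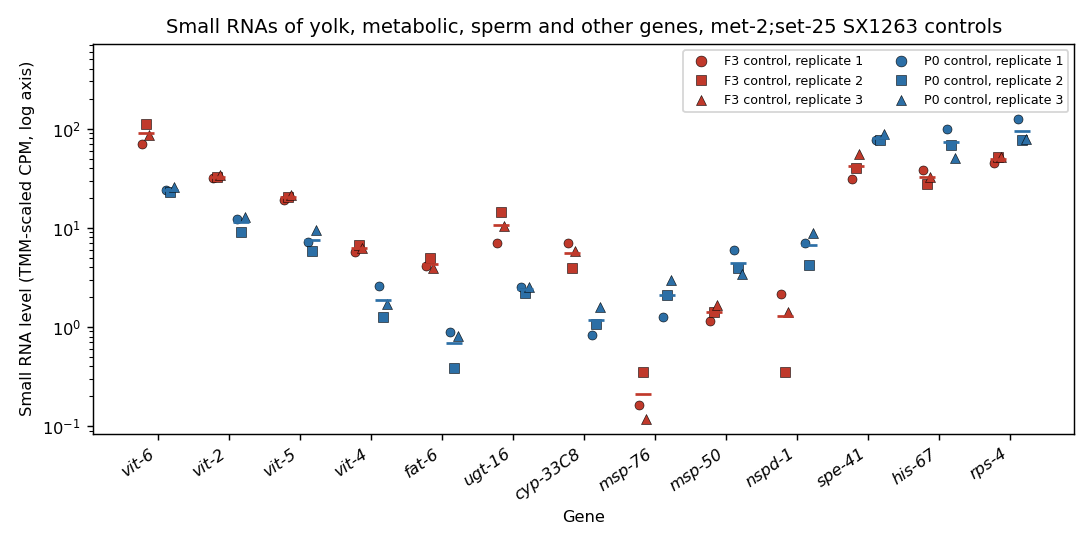
Small RNA levels (TMM-scaled CPM, log axis) of 13 genes in each library; red symbols are F3 control libraries and blue symbols P0 control libraries of met-2;set-25 SX1263, symbol shapes are replicate numbers and bars are group means. The 7 genes at the left, 4 vit genes, fat-6, ugt-16 and cyp-33C8, had all F3 libraries above all P0 libraries, and the 6 genes at the right, msp-76, msp-50, nspd-1, spe-41, his-67 and rps-4, had all F3 libraries below.

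Enzymes that act on foreign compounds and lipids were among the genes with the largest gains. Cytochrome P450 (cyp) enzymes oxidize foreign compounds, and UDP-glucuronosyltransferases (ugt) and glutathione S-transferases (gst) attach groups that make them soluble. Of 100 such genes tested, 11 were called higher, which is 11 of 100 against 3.38% of all genes, and 1 was called lower. The median was 0.25, and without F3 replicate 2 the calls were 5 higher and 0 lower, and without P0 replicate 1 they were 3 and 0. cyp-33C8 (chromosome V, 3800782 to 3803542) had 7.04, 3.90 and 5.82 CPM in F3, against 0.822, 1.06 and 1.60 CPM in P0. The groups stood well apart, and the gene rose by 2.30 on the log2 scale (SE 0.38, adjusted p = 0.00056), or 4.91-fold, and was called in all 6 fits that leave out a library. The 1 gene called lower was its relative cyp-33C9, with 6.01 CPM in F3 and 17.9 CPM in P0 on average (log2 change -1.58).

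A run of neighbouring genes on chromosome V (12825024 to 12839854) held ugt-16, ugt-15 and C44H9.4, and all 3 were called higher. ugt-16 had 7.04, 14.5 and 10.3 CPM in F3 and 2.54, 2.22 and 2.52 CPM in P0 (log2 change 2.11, SE 0.39, adjusted p = 0.0015). For ugt-15 the levels were 4.42, 1.06 and 3.56 CPM in F3 and 0.224, 0.385 and 0.114 CPM in P0, close to the floor (log2 change 3.62, SE 0.65, adjusted p = 0.0012). P0 worms of the same genotype fed dsRNA against GFP had 2.37, 4.01 and 1.66 CPM for this gene, above every P0 control library. F3 descendants of worms so fed had 5.64, 3.94 and 4.09 CPM, with overlap (log2 change 0.76, adjusted p = 0.37). C44H9.4 had 13.3, 29.0 and 21.3 CPM in F3 and 6.05, 5.88 and 4.92 CPM in P0 (log2 change 1.90, SE 0.41, adjusted p = 0.0059). All 3 were called in each of the 6 fits that leave out a library. A second run, on chromosome IV (6210936 to 6225009), held C49A9.6, C49A9.9 and C49A9.3, with log2 changes of 1.65, 1.62 and 1.43 and F3 libraries wholly above P0 libraries in each, of which C49A9.9 was called in all 6 such fits. These are 2 of 12 runs of at least 3 genes called in 1 direction with gaps of at most 20 kb, and they were picked after their values were seen. Of the 12 runs 11 were higher in F3 and 1, on chromosome X, was lower, with a median of -1.18 over its 6 tested genes.

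In fatty acid metabolism 2 of 41 tested genes were called higher, a share of 4.88% near the 3.38% of all genes, and the median was 0.31. fat-6, a stearoyl-CoA desaturase, had 4.09, 4.96 and 3.92 CPM in F3 and 0.896, 0.385 and 0.801 CPM in P0, without overlap (log2 change 2.59, SE 0.48, adjusted p = 0.0018, called in all 6 such fits). fat-5, a desaturase of palmitate, had 1.91 ± 1.00 CPM in F3 and 0.498 ± 0.232 CPM in P0 (log2 change 1.91, adjusted p = 0.047), and its call was lost in 5 of those 6 fits. Among 29 genes of vitamin B12 and methionine metabolism the median was 0.11. Of these, 2 were called higher (6.90%, against 3.38% of all genes) and 1 lower (3.45%, against 1.94%). sams-1, which makes the methyl donor S-adenosylmethionine, had 75.6, 97.0 and 79.0 CPM in F3 and 40.4, 46.2 and 38.9 CPM in P0. The groups were clear of each other (log2 change 1.00, SE 0.30, adjusted p = 0.042). The call was lost without F3 replicate 2 (adjusted p = 0.14), without F3 replicate 3 and without any 1 of the 3 P0 libraries. mthf-1, which makes methyl-folate, changed by 0.39 (adjusted p = 0.011), and mmab-1, which makes the B12 cofactor of propionate breakdown, by -0.42 (adjusted p = 0.025). Neither was called without F3 replicate 2 or without P0 replicate 1.

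Genes of the response to bacteria had a median of 0.50 over 26 tested, with 20 positive (76.9%, against 47.3% of all genes). Of them 2 were called higher (7.69%, against 3.38% of all genes), and none without F3 replicate 2 or without P0 replicate 1. lys-1, a lysozyme, had 3.60, 4.96 and 6.18 CPM in F3 and 1.57, 0.867 and 1.60 CPM in P0 (log2 change 1.86, adjusted p = 0.036). sek-1, a kinase of the p38 immune pathway, had 5.4, 12.7 and 8.31 CPM in F3 and 4.18, 5.59 and 4.0 CPM in P0, with overlap (log2 change 0.91, adjusted p = 0.046). Both calls were lost without F3 replicate 2 (adjusted p = 0.084 and 0.28), without F3 replicate 3 and without P0 replicate 1 or 3. That of lys-1 was also lost without P0 replicate 2. In the pals family, a set of genes tied to the response to intracellular pathogens, 3 of 20 were called higher (pals-23, pals-6 and pals-15), 15% against 3.38% of all genes, with a median of 0.49 and levels of 1.43 to 2.10 CPM in F3 and 0.221 to 0.376 CPM in P0. The P0 levels of these 3 genes were close to the floor. Without F3 replicate 2, and likewise without P0 replicate 1, 1 gene of the family was called higher. The call of pals-23 held without F3 replicate 2 (adjusted p = 0.043) and was lost without P0 replicate 1 (adjusted p = 0.069). That of pals-6 was lost without F3 replicate 2 or 3 and without any 1 of the 3 P0 libraries. That of pals-15 was lost without F3 replicate 2 and without P0 replicate 2 or 3.

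The remaining genes with the largest gains among those of at least 5 CPM in F3 were ucr-2.2, Y39B6A.1, fbxa-209, cyp-33A1, B0252.1 and pmp-5, all between 3.09-fold and 4.59-fold. ucr-2.2 (chromosome X, 15173904 to 15178145), a subunit of respiratory complex III, had 4.58, 8.15 and 10.3 CPM in F3 and 2.09, 1.06 and 1.83 CPM in P0 (log2 change 2.20, SE 0.36, adjusted p = 0.00056). pmp-5, a peroxisomal transporter, had 6.55, 10.3 and 8.31 CPM in F3 and 1.79, 3.08 and 3.20 CPM in P0 (log2 change 1.63, adjusted p = 0.0056). In all 6 genes the F3 libraries lay above the P0 libraries, and ucr-2.2 was called in all 6 fits that leave out a library. The calls of fbxa-209 and Y39B6A.1 were lost without F3 replicate 2 (adjusted p = 0.078 and 0.051), and those of Y39B6A.1, fbxa-209, cyp-33A1, B0252.1 and pmp-5 without P0 replicate 1 (adjusted p = 0.051, 0.12, 0.060, 0.086 and 0.053).

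Among called genes of at least 5 CPM in P0 whose libraries did not overlap, the 12 with the largest losses had 5.11 to 53.2 CPM in P0 and fell by 2.23 to 3.25 on the log2 scale. C24H11.2 (chromosome III, 11790497 to 11792345) had 1.31, 0.00 and 0.950 CPM in F3 and 6.50, 5.49 and 6.98 CPM in P0 (log2 change -2.84, SE 0.71, adjusted p = 0.016). The pseudogene Y40H7A.9 (chromosome IV, 15207497 to 15207894) had the highest level of the 12, with 12.8, 8.85 and 7.60 CPM in F3 and 26.1, 85.5 and 47.8 CPM in P0 (log2 change -2.44, SE 0.60, adjusted p = 0.015). frk-1, a Fer-type tyrosine kinase gene, had 1.20 ± 0.428 CPM in F3 and 6.99 ± 3.71 CPM in P0 (log2 change -2.43, adjusted p = 0.015). In W03B1.9 and plpr-1 a single P0 library carried much of the loss, with 11.7 CPM in P0 replicate 1 for W03B1.9 and 15.5 CPM in P0 replicate 2 for plpr-1, against 1.83 to 2.12 CPM in the other P0 libraries of these genes. Only plpr-1 of the 12 was still called without F3 replicate 2 (adjusted p = 0.020), and it was lost without P0 replicate 2.

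Most lists of small RNA machinery genes held no call. Primary Argonautes (8 tested), secondary Argonautes (12), mutator and RNA-dependent RNA polymerase genes (25), P granule genes (18) and genes of dsRNA uptake (9) held no called gene in edgeR's or DESeq2's test. At an unadjusted p under 0.05 they held 3, 1, 7, 0 and 2 genes, and their medians were -0.06, 0.04, 0.08, 0.05 and -0.15 on the log2 scale. Single genes spread more widely, from -1.33 to 0.53 in primary and from -1.62 to 0.57 in secondary Argonautes, and in 2 secondary Argonautes the F3 libraries lay wholly below the P0 libraries. prg-1, the piRNA Argonaute, had 912, 1050 and 848 CPM in F3 and 863, 953 and 1063 CPM in P0. csr-1, which protects germline transcripts, had 1058 ± 203 CPM in F3 and 1080 ± 292 CPM in P0. hrde-1, the Argonaute of inherited silencing, had 823, 828 and 853 CPM in F3 and 1483, 906 and 951 CPM in P0. All F3 values of hrde-1 lay below all P0 values, but the log2 change of -0.42 (SE 0.21, adjusted p = 0.23) did not pass the test. sid-1, the dsRNA channel, and znfx-1, a germ granule helicase, changed by 0.06 and 0.01.

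In nuclear RNAi and inheritance 3 of 20 genes were called higher (15%, against 3.38% of all genes), and 0 without F3 replicate 2 or without P0 replicate 1. nrde-1, which acts with small RNAs at chromatin, had 152, 652 and 215 CPM in F3 and 133, 151 and 183 CPM in P0. Its change of 1.12 (SE 0.27, adjusted p = 0.012) came to 0.26 without F3 replicate 2 (adjusted p = 0.51). heri-1, which limits how long silencing is inherited, had 184, 175 and 166 CPM in F3 and 118, 139 and 152 CPM in P0, a small shift without overlap (log2 change 0.36, adjusted p = 0.047). emb-4, a helicase of nuclear silencing, changed by 0.34 (adjusted p = 0.037). Of 26 heterochromatin genes 2 were called higher (7.69%, against 3.38% of all genes), and 1 without F3 replicate 2 or without P0 replicate 1. cec-5, a chromodomain gene, had 89.8, 106 and 102 CPM in F3 and 56.6, 58.7 and 67.8 CPM in P0 (log2 change 0.70, SE 0.14, adjusted p = 0.0028) and was called in all 6 fits that leave out a library. mes-3, a subunit of the H3K27 methyltransferase, changed by 0.43 (adjusted p = 0.016) and by 0.24 without F3 replicate 2 (adjusted p = 0.19). Among 25 targets of the ERGO-1 26G pathway 1 gene was called, higher (4%, near the 3.38% of all genes). It was the pseudogene ZK402.3, which F3 replicate 2 carried as well.

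F3 replicate 2 had the highest F3 level in 287 of the 429 genes called higher, and in 48 it was at least 2 times both other F3 libraries. Over all genes tested it was the highest F3 library in 32.9%. Abundant genes were among these 48. F10E9.2 (chromosome III, 8312693 to 8314324) had 1421, 6167 and 2412 CPM in F3 and 917, 1583 and 1382 CPM in P0, and its change of 1.36 (adjusted p = 0.019) came to 0.59 without that library (adjusted p = 0.36). For egg-6 (chromosome I, 8676666 to 8681325), a gene of a leucine-rich repeat protein, the levels were 1133, 4487 and 1217 CPM in F3 and 819, 1435 and 951 CPM in P0. Its change of 1.09 (adjusted p = 0.026) came to 0.15 (adjusted p = 0.79). Outside F3 replicate 2, the F3 and P0 libraries overlapped in both genes. tbb-2, a beta-tubulin gene, was highest in it as well, with 183, 336 and 152 CPM in F3 and 132, 134 and 152 CPM in P0 (log2 change 0.68, adjusted p = 0.044, and 0.28 with adjusted p = 0.48 without that library).

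**Figure D3:**
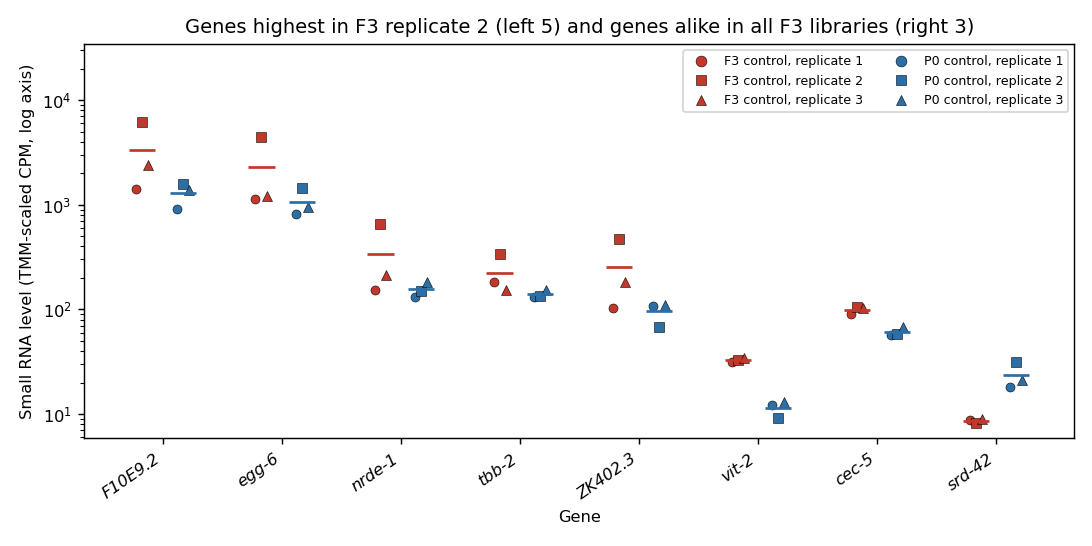
Small RNA levels (TMM-scaled CPM, log axis) in each library of 5 genes that were highest in F3 replicate 2 (red squares) and of vit-2, cec-5 and srd-42, whose F3 libraries lay close together; red is F3 control, blue P0 control, shapes are replicate numbers and bars group means. In nrde-1 F3 replicate 2 stood at 652 CPM and the other F3 libraries at 152 and 215 CPM, within or near the 133 to 183 CPM of P0.

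Among the 5 most abundant called genes, Y52B11A.18, a pseudogene on chromosome I (11059299 to 11061435), had 2082, 2489 and 1760 CPM in F3 and 7118, 3549 and 2919 CPM in P0. It was lower in every F3 library (log2 change -1.10, SE 0.32, adjusted p = 0.032), but P0 replicate 1 stood well above the rest and the call was lost without it and without any 1 of the F3 libraries. K08F11.1 had 1325 ± 219 CPM in F3 and 1953 ± 226 CPM in P0 (log2 change -0.56, adjusted p = 0.046). The pseudogene T07D3.3 had 1058 ± 200 CPM in F3 and 675 ± 51 CPM in P0 (log2 change 0.65, adjusted p = 0.041). Both calls were lost without F3 replicate 2 or 3, without P0 replicate 1 or 2 and under RLE scaling.

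Histone and ribosomal protein genes held a few calls, most of them lower and most resting on single libraries. Of 41 histone genes 3 were called lower (7.32%, against 1.94% of all genes) and none higher, with a median of -0.10, and all 3 encode histone H4. Without F3 replicate 2, and likewise without P0 replicate 1, 1 of them was called lower. his-67 (chromosome I, 9988452 to 9988763) had 38.0, 28.0 and 32.7 CPM in F3, against 101, 68.9 and 51.1 CPM in P0 (log2 change -1.16, SE 0.22, adjusted p = 0.0021). It was called in all 6 fits that leave out a library, while his-37 (log2 change -1.08) and his-38 (-1.01) lost their calls without F3 replicate 2 and without P0 replicate 1. Histone H4 genes are near-identical, so that reads may be shared between copies. Of 80 ribosomal protein genes 4 were called lower (5%, against 1.94%) and 2 higher (2.5%, against 3.38%), with a median of -0.05, and without either of these libraries 1 was called lower and none higher. rps-4 had 45.0, 52.4 and 52.4 CPM in F3 and 127, 77.7 and 78.5 CPM in P0 (log2 change -0.92, SE 0.18, adjusted p = 0.0022), and rps-21 had 14.8 ± 4.57 CPM in F3 and 31.3 ± 5.15 CPM in P0 (log2 change -1.06, adjusted p = 0.0068). The call of rps-4 was lost without P0 replicate 1 (adjusted p = 0.057) and that of rps-21 without F3 replicate 2 (adjusted p = 0.069). The 23 heat shock and stress genes tested held no call by edgeR, 5 at an unadjusted p under 0.05 and 1 call by DESeq2, with a median of -0.22.

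The large gene families held few calls. Of 140 chemoreceptors tested 34 had a positive change (24.3%, against 47.3% of all genes), with a median of -0.54, and 5 were called lower (3.57%, against 1.94%) and none higher. Genes poor in small RNAs had negative medians as a whole, -0.36 under 1 CPM and -0.26 at 1 to 5 CPM. srd-42 had 8.84, 8.15 and 8.91 CPM in F3 and 18.2, 31.3 and 21.2 CPM in P0 (log2 change -1.44, SE 0.31, adjusted p = 0.0059), without overlap and called in all 6 fits that leave out a library. F-box genes had 3 higher and 4 lower calls among 221 (1.36% and 1.81%, against 3.38% and 1.94% of all genes). C-type lectins had 3 and 3 among 77 (3.90% each), and MATH and BATH genes 1 and 0 among 47 (2.13% and 0%). Nuclear hormone receptors had 0 and 2 among 148 (0% and 1.35%), and cuticle collagens 1 and 0 among 61 (1.64% and 0%). The MATH gene was bath-42, a substrate adaptor of CUL-3 ubiquitin ligases, with 67.9, 89.2 and 58.8 CPM in F3 and 46.3, 42.2 and 47.1 CPM in P0 (log2 change 0.66, adjusted p = 0.0028), and it was called in all 6 such fits. The collagen was col-72 (log2 change 1.20, adjusted p = 0.019), whose call was lost without F3 replicate 2 or 3 and without P0 replicate 1 or 2. In pseudogenes 9 of 225 were called lower (4%, against 1.94% of all genes) and 2 higher (0.889%, against 3.38%). Their median of -0.26 was that of all genes at 1 to 5 CPM.

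Called genes lay on every chromosome. On the X, 65 of 1332 tested genes were called higher, or 4.88%, and 32 lower, or 2.40%. The autosomes ranged from 2.94 to 3.62% higher and from 1.58 to 2.55% lower. Along the autosomes the centres held 253 higher (3.80%) and 105 lower (1.58%) calls among 6661 genes. The arms, taken as the outer 25% at either end, held 109 (2.37%) and 108 (2.34%) among 4608. No difference between chromosomes was tested.

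Of the 65 genes called whichever library was left out, several have known roles and lie outside the lists above. They were picked from the 65 after their values were seen. chd-3, a chromatin remodeler of the Mi-2 type (chromosome X, 12846439 to 12852601), had 180, 237 and 203 CPM in F3 and 80.0, 89.7 and 102 CPM in P0 (log2 change 1.19, SE 0.23). sars-1, the seryl-tRNA synthetase, had 61.2, 103 and 60.0 CPM in F3 and 33.1, 37.7 and 36 CPM in P0 (log2 change 1.06, SE 0.15). ran-4, which carries the GTPase Ran into the nucleus, had 115, 89.2 and 119.5 CPM in F3 and 190, 228 and 212 CPM in P0 (log2 change -0.95, SE 0.16). In all 3 genes the generations did not overlap in these controls, but none of the 3 was called in the anti-GFP arm described next.

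The next question was whether the same change appeared in other libraries. In met-2;set-25 SX1263 worms of the anti-GFP arm, F3 descendants of worms fed dsRNA against GFP were compared with the P0 worms so fed, in 3 libraries each. These 6 libraries share none with the controls, but P0 anti-GFP and P0 control libraries of the same number deviated together from their group means (Pearson's r across genes of 0.657, 0.467 and 0.319), so the comparisons are not wholly separate. In this arm 788 genes were called (6.2%), 331 of them higher (2.61%) and 457 lower (3.6%). The count was 0 when these 2 groups were fitted alone, 522, 383 and 489 without F3 anti-GFP replicates 1, 2 and 3, and 435 and 464 without P0 anti-GFP replicates 1 and 2. Of the 429 genes called higher in F3 controls, 407 (94.9%) had a positive change there, against 46.6% of all genes tested. Of the 246 called lower, 243 (98.8%) had a negative change there, against 53.2% of all genes. Calls in both comparisons were made for 66 genes called higher, which is 15.4% of the control list and 19.9% of the anti-GFP list, and for 114 called lower, which is 46.3% and 24.9%. No gene was called in opposite directions. In the anti-GFP arm the median change was 0.32 for the genes called higher in the controls and -1.17 for those called lower. These genes were chosen by their change in the controls, so the sizes are not compared between the arms. All 65 genes called whichever library was left out had the same sign, and 35 of them were called there too. Among those named above, vit-2, vit-6, cyp-33C8, ugt-16, C44H9.4, C49A9.9, msp-76, his-67 and srd-42 were called in both arms. Not called in the anti-GFP arm were chd-3 (log2 change 0.32, adjusted p = 0.41), sars-1 (0.41, 0.074) and ran-4 (-0.21, 0.44). The same held for fat-6 (1.12, 0.12), ucr-2.2 (1.02, 0.069), cec-5 (0.41, 0.059), bath-42 (0.21, 0.33) and ugt-15 (0.76, 0.37).

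**Figure D4:**
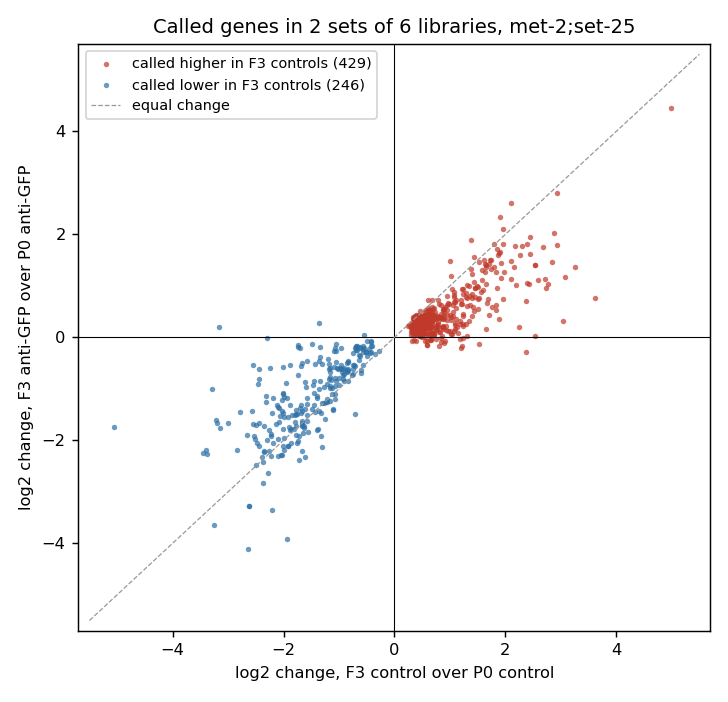
Each point is 1 of the 675 genes called in met-2;set-25 SX1263 controls, at its log2 change of F3 control over P0 control (x axis) and of F3 anti-GFP over P0 anti-GFP (y axis), red for genes called higher in F3 controls and blue for genes called lower; the dashed line marks equal change. Of the red points 407 of 429 lie above 0 on the y axis and of the blue points 243 of 246 lie below.

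Yolk and sperm genes showed the same direction in single values. In the anti-GFP arm vit-6 had 72.4, 83.0 and 88.6 CPM in F3 and 28.1, 22.8 and 27.2 CPM in P0 (log2 change 1.64, adjusted p = 0.012). vit-2 changed by 1.47 (adjusted p = 0.0030), and 5 of the 7 yolk genes were called higher. spe-41 had 23.9, 41.8 and 49.7 CPM in F3 and 64.1, 63.1 and 64.3 CPM in P0. The spermatogenesis list had a median of -1.33 with 8 genes called lower and 1 higher, and the msp list -1.73 with 3 lower. GFP, the target of the dsRNA, had 201, 169 and 331 CPM in F3 and 1841, 1770 and 1499 CPM in P0 (log2 change -2.87, adjusted p = 1.9e-11).

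In wild-type SX1263 controls fewer genes were called when the spread was shared over all 59 SX1263 libraries. There, 115 genes were called (0.905%), 29 higher in F3 (0.228%) and 86 lower (0.677%), and the median over all genes was -0.10. The count was 22, 9 and 14 without wild-type F3 replicates 1, 2 and 3, and 14 and 72 without P0 replicates 1 and 3. When just the 2 compared groups were fitted the order turned round, with 83 genes called in wild type and 0 in the double mutant. At an unadjusted p under 0.05 these fits held 1917 and 1380 genes. Of the genes called higher in the double mutant, 366 of 429 had a positive change in wild type (85.3%, against 38.1% of all genes), and of those called lower 238 of 246 had a negative change (96.7%, against 61.6%). Both comparisons called 9 genes higher and 33 lower. In the double-mutant controls, the anti-GFP arm and wild type alike, 4 genes were called higher, vit-2, vit-5, F52G3.1 and gos-28, and 25 lower, among them msp-50, clec-123 and srt-65. vit-2 had 11.3 ± 0.675 CPM in wild-type F3 and 3.76 ± 0.917 CPM in wild-type P0 (n = 3 each), a change of 1.58 (adjusted p = 0.0082). The lists did not all lean one way in both genotypes. In wild type the yolk list had a median of 0.83 and the spermatogenesis list one of -1.03, with the same signs as in the double mutant. The xenobiotic list had a median of -0.14 there with none called higher and 1 lower, the bacterial response list -0.09 and the fatty acid list -0.02, where the double mutant had positive medians.

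The difference in change between the double mutant and wild type was tested for every gene. edgeR called 0 of 12706 genes (0%), with 656 at an unadjusted p under 0.05, 1 without F3 replicate 1 of the double mutant, and 3 by DESeq2. For vit-2 the difference was -0.05 (SE 0.39), for vit-6 0.40 (SE 0.55), for spe-41 -0.28 (SE 0.31) and for nspd-1 -0.44 (SE 0.82), all on the log2 scale. Differences that miss the threshold do not show that both genotypes changed alike, and the larger number of calls in the double mutant is not shown to be a larger change.

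Against the met-2 single mutant the same test called 2 genes (0.0157%), and in both the met-2 libraries had the larger change. cdh-5, a cadherin gene (chromosome IV, 8668935 to 8676619), had 546, 66.9 and 564 CPM in F3 and 416, 222 and 650 CPM in P0 of the double mutant, a log2 change of -0.12 (SE 0.51). In met-2 it had 10.3 ± 1.02 CPM in F3 and 184 ± 65.2 CPM in P0, a log2 change of -4.16, so that the difference was 4.04 (SE 0.76, adjusted p = 0.026). Y2H9A.4 had 3.15 ± 0.894 CPM in F3 and 1.10 ± 0.635 CPM in P0 of the double mutant and 1.39 ± 0.734 and 18.2 ± 12 CPM in F3 and P0 of met-2 (difference 5.23, SE 0.91, adjusted p = 0.012). In the 12 fits that leave out 1 library of the 4 groups, the call held in 3 for cdh-5 and in 8 for Y2H9A.4.

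In a second reporter strain, EG6089, with the same mutations, generation F3 was compared with P0 in the same way. There 1371 of 9373 genes were called (14.6%), 316 higher (3.37%) and 1055 lower (11.3%). The count was 588 when these 2 groups were fitted alone, 783, 817 and 740 without F3 replicates 1, 2 and 3 of EG6089, and 306 without P0 replicate 2. Of the 376 genes called higher in SX1263 that were tested in EG6089, 281 had a positive change (74.7%, against 48.1% of all genes), 32 were also called higher and 7 were called lower. Of 165 genes called lower in SX1263, 132 had a negative change (80.0%, against 51.9%) and 45 were also called lower. Several lists with positive medians in SX1263 had negative ones in EG6089. The yolk list had a median of -0.34 over 6 tested genes in EG6089, with none called, and the intestine list -0.49 over 20 genes, with 2 called lower. The median was -0.42 for xenobiotic enzymes (1 called higher and 4 lower), -0.45 for the bacterial response, -0.26 for fatty acid metabolism (6 called lower) and -0.41 for the pals family. vit-6 had 26.3 ± 2.69 CPM in F3 and 29.4 ± 8.45 CPM in P0 of EG6089. The spermatogenesis list had a median of -0.33 over 15 tested genes in EG6089, with 3 called lower, against -0.93 in SX1263. The msp list had -0.01 over 2 tested genes, with 0 called, against -1.52 in SX1263. spe-41 fell in EG6089 as in SX1263 (log2 change -1.11, adjusted p = 0.00046), and his-67 and rps-4 did so too (log2 change -1.07 and -0.92). The 2 strains were counted in tables with different gene rows, so the difference between them was not tested.

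**Figure D5:**
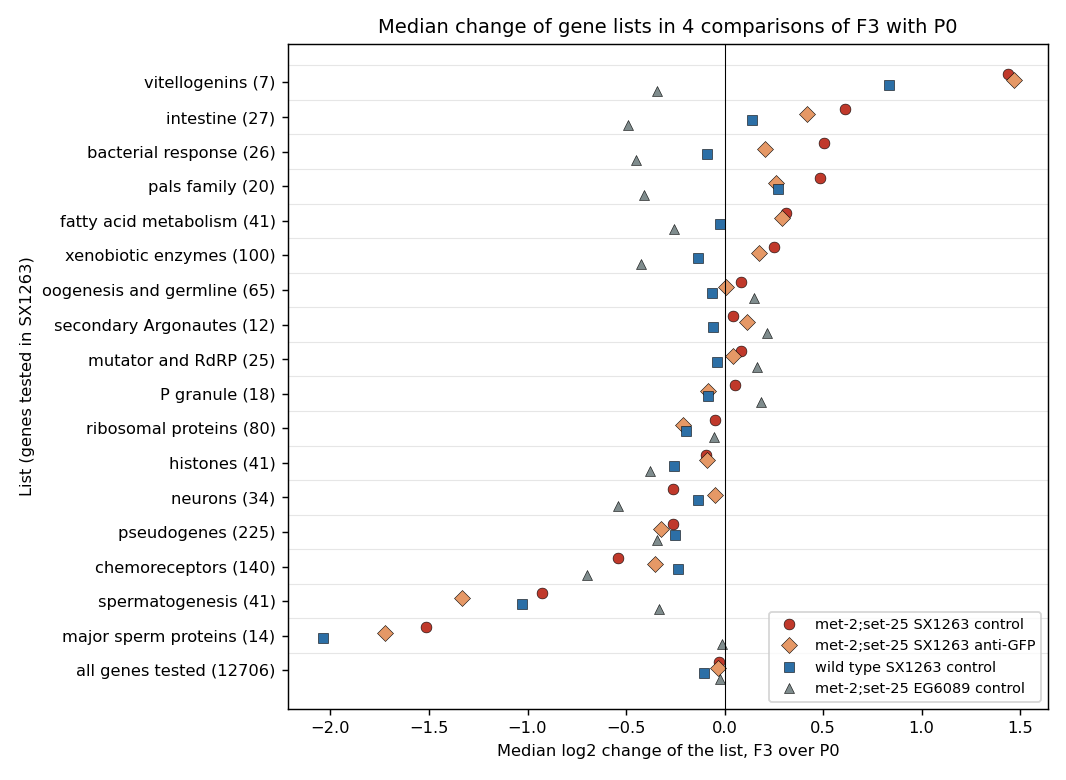
Median log2 change of F3 over P0 (x axis) of 17 gene lists and of all genes tested (y axis, with the number of genes tested in SX1263) in 4 comparisons: met-2;set-25 SX1263 controls (red circles), the anti-GFP arm of the same strain (orange diamonds), wild-type SX1263 controls (blue squares) and met-2;set-25 EG6089 controls (grey triangles). Yolk genes stood at 1.44, 1.47 and 0.83 in SX1263 and at -0.34 in EG6089, and major sperm protein genes at -1.52, -1.73 and -2.04 in SX1263; in EG6089 only 2 msp genes were tested.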

How the data were processed

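Small RNA reads per gene were deposited by the authors as raw counts, in 1 table of 59 SX1263 libraries and 1 of 24 EG6089 libraries. Per the submitters' processing notes, cutadapt, FastQC, Bowtie2, HTSeq and DESeq2 were used with the builds WBcel235 and ce11. Versions, strand and any filter on read length are not given in the sources used here, so reads of overlapping or antisense genes cannot be told apart. HTSeq's own summary rows, 50.8 to 58.8% of the records in these 6 libraries, were left out. Of 20449 rows 20159 matched a gene of the Ensembl WBcel235 annotation, and the other 290 held 0.737% of counts.

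Counts were tested with edgeR 4.0.16 in R 4.3.3 (TMM scaling, filterByExpr with a minimum count of 10 and total of 15, robust quasi-likelihood F test, Benjamini-Hochberg adjusted p under 0.05). All 59 libraries shared 1 fit, with the 24 EG6089 libraries in another. The script was tested on simulated data. Alternatives were RLE scaling, no filter, DESeq2 1.42.0, a replicate block, the compared groups alone, each library left out and libraries thinned to 1 depth. Levels are TMM-scaled CPM, and SEs were taken from the log2 change and its F statistic. Genes were named by rule: the 12 with the largest change in each direction among called genes of at least 5 CPM in the higher group whose libraries did not overlap, the 5 most abundant called genes, up to 3 called genes per list (the 2 most abundant where none was called) and fixed control genes; others are said to be picked by value. The groups, gene lists and tests were chosen with earlier results of these data known.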

Additional observations from a re-analysis of the deposited data

Results flagged for a closer look

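The change of F3 over P0 in small RNAs differed between the double mutant and the met-2 single mutant in 2 genes, by edgeR's test of the difference with Benjamini-Hochberg adjustment. The difference was 4.04 on the log2 scale for cdh-5 (SE 0.76, adjusted p = 0.026) and 5.23 for Y2H9A.4 (SE 0.91, adjusted p = 0.012). Leaving out each of the 12 libraries in turn, the difference ran from 3.69 to 4.56 for cdh-5, with adjusted p from 0.00067 to 0.23, and from 4.56 to 5.83 for Y2H9A.4, with adjusted p from 0.0068 to 0.13. cdh-5 varied widely among the F3 libraries of the double mutant, with 66.9 CPM in F3 replicate 2 and 546 and 564 CPM in the other F3 libraries. Neither difference was called when just the 4 groups were fitted.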

How the results depend on the processing

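No called gene named by rule changed direction under an alternative. In met-2;set-25 SX1263 controls 675 genes were called, against 290 without the filter on low counts (115 higher and 175 lower), 0 when the compared groups were fitted alone and 141 to 838 with 1 library left out. In the anti-GFP arm 788 genes were called, against 445 without the filter, 0 with the compared groups alone (1497 at an unadjusted p under 0.05) and 383 to 626 with 1 library left out. Wild type gave 115 genes, against 245 with DESeq2, 83 with the compared groups alone and 9 to 123 with 1 library left out. EG6089 gave 1371, against 588 with the compared groups alone and 306 to 1916 with 1 library left out. The difference from wild type gave 0 genes, 3 with DESeq2 and 0 to 1 with 1 library left out. The difference from met-2 gave 2 genes, 1 without the filter, 0 with the compared groups alone (241 at an unadjusted p under 0.05) and 0 to 4 with 1 library left out. With a replicate block the double mutant had 989 calls and wild type 200. Same-numbered F3 and P0 control libraries of the double mutant correlated at -0.100, 0.099 and 0.008 in their deviations across genes. Differently numbered ones ran from -0.157 to 0.203, so these values do not show whether the numbers pair the libraries. Same-numbered controls of met-2 correlated at 0.245, 0.157 and 0.266, and those of wild type at 0.061, -0.017 and 0.084. The replicate block ended the call of none of the 75 called genes named by rule. Of these 75, DESeq2 kept 75, RLE scaling 73, no filter 43, leaving out F3 replicate 2 24 and leaving out P0 replicate 1 25. Thinning the 6 libraries to 3583283 counts, an alternative chosen after seeing the data, gave 593 calls. Of these, 457 were among the 675 in the same direction, and 56 of 74 called genes named by rule kept their call. The cause of these shifts was not tested. Depth limits genes under the floor of 3 counts, up to 0.837 CPM in F3.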

Other observations

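Several more sperm-related genes outside the lists were called lower in F3, and they were picked after their values were seen. ssq-1, a small gene of the sperm-specific family, had 3.27, 0.354 and 1.78 CPM in F3 and 10.5, 5.01 and 8.24 CPM in P0 (log2 change -2.01, SE 0.57, adjusted p = 0.030 by edgeR). smz-2, a PDZ-domain gene of sperm, had 2.29, 1.42 and 1.54 CPM in F3 and 4.26, 7.32 and 9.95 CPM in P0 (log2 change -2.0, SE 0.61, adjusted p = 0.043). In both the F3 libraries lay wholly below the P0 libraries, and neither was called without F3 replicate 2 (adjusted p = 0.14 each). In the anti-GFP arm smz-2 changed by -2.18 (adjusted p = 0.027) and ssq-1 by -1.46 (adjusted p = 0.10).

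Among genes of signalling and transport, ppk-3, a kinase that makes a phosphoinositide of endosomes, had 189, 265 and 211 CPM in F3 and 118.8, 113 and 111 CPM in P0 (log2 change 0.95, SE 0.19, adjusted p = 0.0036). mrp-5, an exporter of heme from the intestine, had 68.7, 82.5 and 85.6 CPM in F3 and 40.9, 30.9 and 37.9 CPM in P0 (log2 change 1.11, SE 0.21, adjusted p = 0.0021). Both were called in all 6 fits that leave out a library, and their groups did not overlap. In the anti-GFP arm the changes were 0.53 (adjusted p = 0.083) and 0.37 (adjusted p = 0.29).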
